A study of Homo sapiens with 4 samples.

Results

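Chaperones are proteins that help other proteins to fold, to assemble and to avoid aggregation. The genes described here encode the chaperones of the cytosol and of mitochondria, with their cochaperones and the heat shock transcription factors. They were taken from a list of 42 genes, and a gene was measured where at least 1 probe set of the array named it and no other gene. In all, 39 of the 42 genes were measured, by 85 of the 40914 probe sets that named 1 gene, out of 19774 genes. HSPB11, AHSA1 and HSF2 had no probe set naming them alone, and they are not analysed here.

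HSP70 proteins bind short exposed stretches of unfolded polypeptides and release them on ATP exchange, a cycle driven by J-domain proteins and nucleotide exchange factors. HSP90 acts later, on nearly folded clients such as kinases and steroid receptors. The CCT chaperonin is a double ring that folds actin and tubulin handed over by prefoldin. HSP60 and its lid HSP10 fold other proteins, in mitochondria, and small heat shock proteins hold unfolded proteins without ATP. In heat-stressed cells, the factor HSF1 binds heat shock elements and raises the transcription of many of these genes, and tumour cells, prostate cancer cells among them, are known for high chaperone levels.

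The cells were DU145, an established androgen-insensitive human prostate cancer line. By the labels, the knockdown cells were stably transduced with lentivirus carrying shRNA against DCUN1D1, a ligase of the neddylation pathway (shDCUN1D1, n = 2 arrays), and the control cells with lentivirus carrying shRNA against GFP (shGFP, n = 2 arrays). The methods instead describe RNA taken after infection and a short culture, and it is not known here which account holds for the arrays. The methods name more than 1 shRNA against DCUN1D1, but the labels do not say which one each array carried, so replicate and shRNA cannot be told apart. The labels call the arrays biological duplicates, and p-values measure only the spread between these arrays. Total RNA of whole cultures was hybridised to single-channel Affymetrix arrays, and values are log2 signals, so that a difference of 1 is a 2-fold difference. Since RNA came from whole cultures, more RNA per cell and more cells holding that RNA cannot be told apart.

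The arrays differed in ways that touch every result below. Nonspecific control probe sets of 20 G or C bases read 2.48 and 2.51 in the shDCUN1D1 arrays and 2.97 and 3.30 in the shGFP arrays, and 27.8% and 23.3% of all genes in the shDCUN1D1 arrays exceeded that level, against 15.2% and 10.4% in the shGFP arrays. In shDCUN1D1 replicate 1, 854 of 19774 genes (4.32%) read more than 2 log2 units above each of the other 3 arrays, against 0 such genes in shDCUN1D1 replicate 2 and 0 and 5 in the shGFP arrays. The bioB hybridization control ran the other way, with 6.37 and 6.22 in the shDCUN1D1 arrays and 8.22 and 10.49 in the shGFP arrays. The 3′ control probe set of GAPDH read 10.82 and 5.09 in the shDCUN1D1 arrays and 5.02 and 4.68 in the shGFP arrays. The part of these differences in the chaperone results was not tested, and many of the values below are therefore also given without shDCUN1D1 replicate 1. DCUN1D1 itself read 1.60 and 1.45 in shDCUN1D1 cells and 2.55 and 1.99 in shGFP cells, below the nonspecific control of its array throughout, with a log2 fold change of -0.75 ± 0.26 (SE) whose lower fold limit of 1.16 missed the 1.2 set for a call. Averaged over its 6 probe sets the change was -0.22, and these did not all run one way, 4 being lower and 2 higher. Of the markers of other cells, 5 of 5 leukocyte genes, 5 of 6 endothelial genes and 6 of 8 fibroblast genes were above the control in no array, but so were 5 of 7 epithelial genes and 3 of 5 luminal prostate genes, so most markers of the labelled prostate epithelial origin were not measured above background.

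The promoters of the genes were searched for the heat shock element, since it is the sequence through which HSF1 acts on this family. The motif was GAANNTTCNNGAA or TTCNNGAANNTTC, which together cover both strands, in RefSeq windows of GRCh38.p14 running from 250 bases before to 50 bases after each transcription start. It was present in 172 of 35116 windows (0.49%) of all genes, and in 6 of the 48 windows (12.5%) of the 35 chaperone genes that matched a window. The 6 genes were HSP90AA1, HSP90AB1, HSPA8, HSPD1, DNAJA1 and DNAJB6. The stretches around the matches are printed 5′ to 3′ on the strand of the gene, with the fixed bases of the motif in capitals, for the genes matched upstream of the start. They lie at chr14:102087100-102087152 (minus strand) for HSP90AA1, chr6:44247758-44247863 (plus strand) for HSP90AB1, chr11:123062159-123062386 (minus strand) for HSPA8, chr2:197500048-197500090 (minus strand) for HSPD1 and chr7:157336853-157336905 (plus strand) for DNAJB6.
HSP90AA1: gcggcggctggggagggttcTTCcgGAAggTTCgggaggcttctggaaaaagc
HSP90AB1: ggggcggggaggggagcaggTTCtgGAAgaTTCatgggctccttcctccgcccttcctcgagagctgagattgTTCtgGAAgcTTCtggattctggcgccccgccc
HSPA8: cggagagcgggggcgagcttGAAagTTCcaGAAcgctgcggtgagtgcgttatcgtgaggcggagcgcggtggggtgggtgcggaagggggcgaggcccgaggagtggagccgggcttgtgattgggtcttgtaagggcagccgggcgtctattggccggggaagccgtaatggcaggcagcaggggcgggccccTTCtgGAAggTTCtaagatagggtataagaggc
HSPD1: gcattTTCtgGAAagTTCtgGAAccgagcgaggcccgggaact
DNAJB6: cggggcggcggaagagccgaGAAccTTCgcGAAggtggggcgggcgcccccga
Counted from the transcription start, the motif began at -88 in HSP90AA1, at -165 and -112 in HSP90AB1, at -230 and -55 in HSPA8, and at -131 in DNAJB6. In HSPD1 a pair of overlapping matches began at -245 and -240, so that 4 alternating TTC and GAA blocks stand in a row. The HSPD1 window belongs to the start at 197499840 on chromosome 2. A second HSPD1 start at 197500274 faces away from the start of HSPE1 at 197500379, with 105 bases between them, and the match lies 294 bases from the HSPE1 start. In DNAJA1 the motif began 3 bases after the start. A match is a run of letters and not a measured binding site.

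Across the 39 genes, signals were mostly higher in shDCUN1D1 cells, and the size of that difference depended on 1 array. The log2 fold change was positive for 33 genes and negative for 6, where 48.5% of all genes were positive, and its median was 0.84, against -0.01 for all genes. Both shDCUN1D1 arrays stood above both shGFP arrays for 17 of the 39 genes (43.6%), against 18.4% of all genes. Of these 17, 4 exceeded the nonspecific control in shDCUN1D1 replicate 1 only, as did 709 of the 3641 such genes of the whole array. The order of their other 3 values lies below the control and is not settled. Both stood below for 3, PFDN4, STIP1 and HSF1, against 26.3% of all genes. Without shDCUN1D1 replicate 1 the median fell to 0.21, with 27 genes positive, where 51.1% of all genes were. After quantile normalization it was 0.56, with 30 genes positive and 9 negative. In that array, 12 of the 39 genes read more than 2 log2 units above each other array, against 4.32% of all genes.

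**Figure D1:**
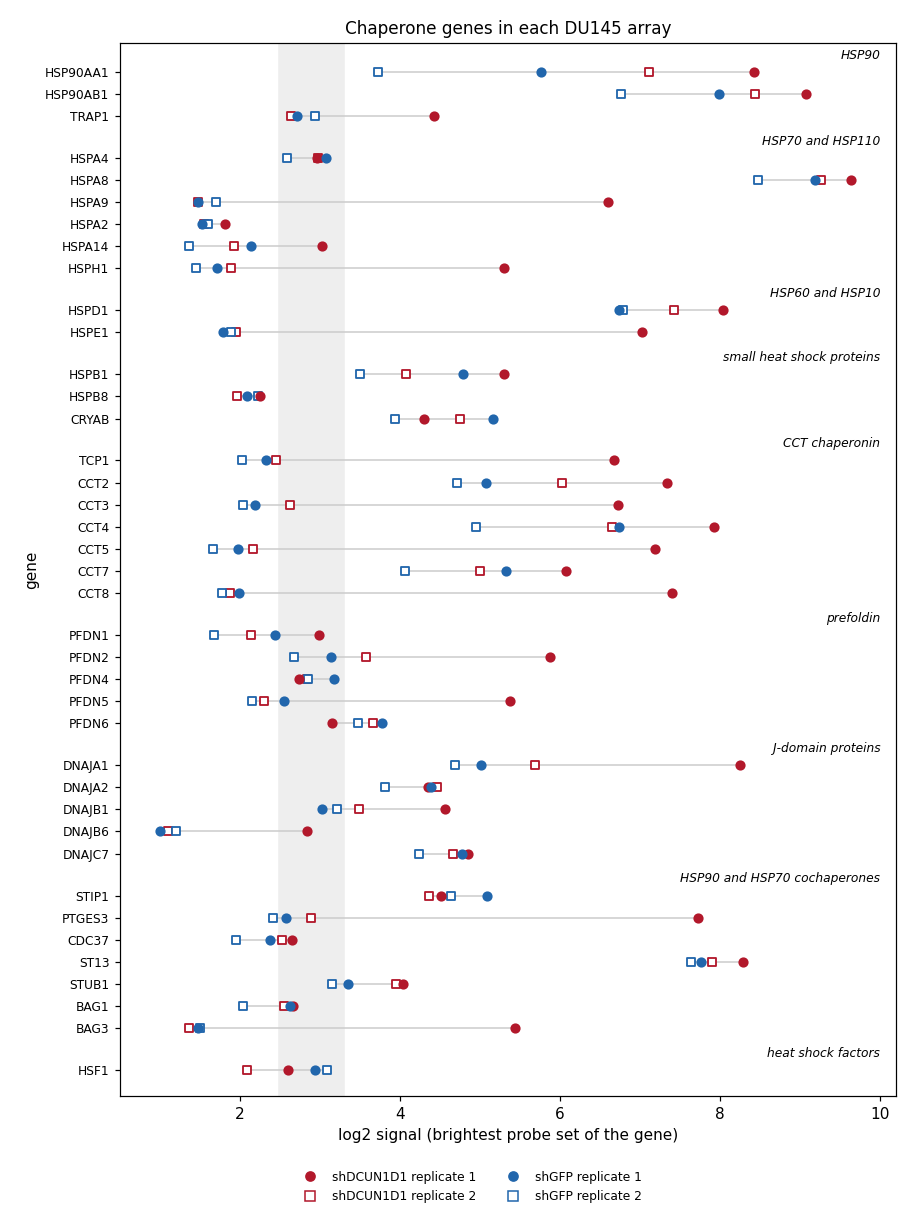
Log2 signal of each chaperone gene (rows, by group) in the 4 arrays, for the probe set of the gene with the highest mean. Red marks shDCUN1D1 and blue shGFP, filled circles replicate 1 and open squares replicate 2, and the grey band spans the nonspecific controls of the arrays (2.48 to 3.30). The filled red circle lies alone at the right in genes such as HSPA9, HSPE1, CCT5 and CCT8, whereas HSP90AB1, HSPA8, HSPD1 and ST13 lie right of the band in every array.

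By the study's rule, in which the lower 90% limit of the fold change must exceed 1.2 (the fold bound), 2 of the 39 genes were higher in shDCUN1D1 cells, against 1.57% of all genes, and 0 were lower, against 3.64% of all genes. They were HSP90AA1 and CCT2. Without shDCUN1D1 replicate 1, 1 gene (HSP90AA1) was higher, against 3.59% of all genes, and 0 were lower, against 3.11%. With limma and Benjamini-Hochberg adjustment over all 19774 genes, 0 of the 39 genes passed an adjusted p of 0.05, as did 0 of all genes, and the lowest adjusted p among the 39 was 0.59. At an unadjusted p under 0.05, 2 genes were higher (2.34% of all genes) and 0 lower (6.05% of all genes). With 2 arrays against 2, an exact two-sided permutation test of a single gene cannot go below p = 0.333, so precision is limited throughout by the few arrays.

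The genes also differed in whether they could be measured in the control cells at all. Above the nonspecific control of the array were 37 and 25 of the 39 genes in the shDCUN1D1 arrays, against 20 and 15 in the shGFP arrays. In all 4 arrays 15 genes exceeded it, against 7.64% of all genes. A further 12 genes exceeded it in shDCUN1D1 replicate 1 only, against 9.13% of all genes. In both shDCUN1D1 arrays but neither shGFP array 5 exceeded it, against 997 of all 19774 genes. In no array did 2, HSPA2 and HSPB8, against 12758 of all 19774 genes. The remaining 5 exceeded it in every array but shGFP replicate 2, a pattern not counted over all genes. The control itself was lower in the shDCUN1D1 arrays, and its part in these counts was not tested. Values below the control have no settled order. The 15 genes above it in all 4 arrays had a median log2 fold change of 0.61 (0.37 without shDCUN1D1 replicate 1), against -0.06 for the 1510 genes of the whole array in that position. Both shDCUN1D1 arrays stood above both shGFP arrays for 7 of these 15 genes, against 16.5% of those 1510. The 12 genes above it only in shDCUN1D1 replicate 1 are high in that array by the way they were picked, so no median is given for them.

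**Figure D2:**
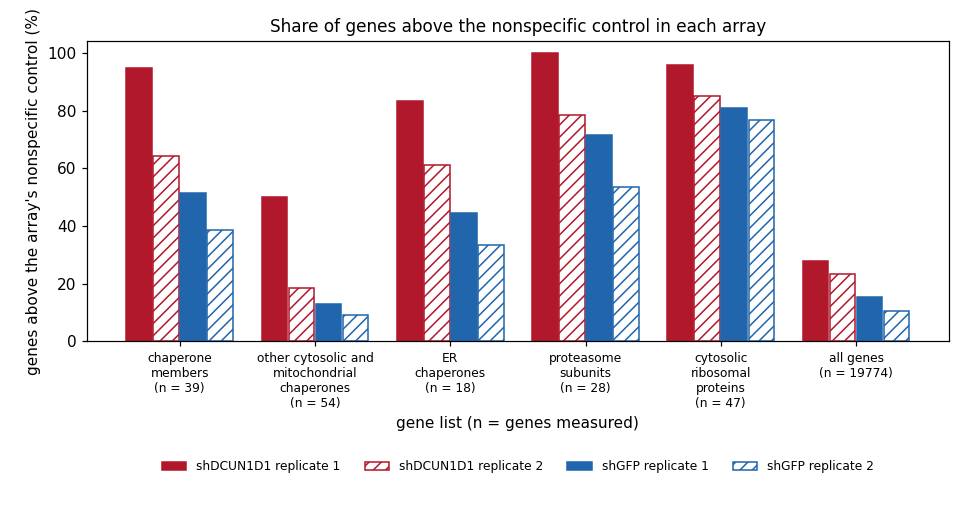
Percent of the genes of each list (n below the label) whose signal exceeded the nonspecific control of the array, with shDCUN1D1 in red and shGFP in blue, and replicate 2 hatched. For the chaperone genes the shares were 94.9% and 64.1% in the shDCUN1D1 arrays, against 51.3% and 38.5% in the shGFP arrays, and the same order of arrays was seen for all genes.

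The HSP90 genes included 1 of the 2 genes past the fold bound. Without shDCUN1D1 replicate 1 their median was 1.06, the value of HSP90AB1. It was the highest of the groups, but the CCT median came from signals below the nonspecific control, so the groups are not ranked by it. HSP90AA1, the stress-inducible cytosolic HSP90, read 8.42 and 7.12 in shDCUN1D1 cells and 5.76 and 3.72 in shGFP cells. Both shDCUN1D1 arrays stood above both shGFP arrays, and all 4 values exceeded the nonspecific control. The log2 fold change was 3.03 ± 0.92 (SE), with a lower fold limit of 2.24 (limma, unadjusted p = 0.023, adjusted p = 0.59). It was 2.38 and still past the fold bound without shDCUN1D1 replicate 1, and 2.01 and no longer past it without shGFP replicate 2. It also missed the fold bound when its probe sets were averaged (2.92) and with an unmoderated standard error. The other 3 probe sets of the gene read 8.01, 7.70 and 6.37 in shDCUN1D1 replicate 1, but 1.91 at the highest in shDCUN1D1 replicate 2, below the nonspecific control, as they were in both shGFP arrays. The difference between the remaining 3 arrays thus rested on 1 probe set of 4. HSP90AA1, like HSPA8, HSPD1 and several CCT subunits, has near-identical processed copies elsewhere in the genome, and what they add to the probe sets was not tested.

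HSP90AB1, the constitutive cytosolic HSP90, read 9.07 and 8.44 in shDCUN1D1 cells and 7.99 and 6.76 in shGFP cells. The log2 fold change was 1.38 ± 0.59 (SE), and its lower fold limit of 1.14 missed the fold bound. It was 1.06 without shDCUN1D1 replicate 1 and 0.86 after quantile normalization. The shDCUN1D1 arrays stood above the shGFP arrays in all 3 of its probe sets, but by different amounts. The second, above the nonspecific control in all 4 arrays, differed by only 0.27, and the third by 1.59. TRAP1, the mitochondrial HSP90, read 4.43 and 2.64 in shDCUN1D1 cells and 2.71 and 2.94 in shGFP cells. Its groups overlapped, and its log2 difference of 0.71 turned to -0.18 without shDCUN1D1 replicate 1. The median of the 3 HSP90 genes over all arrays was 1.38, and 0.86 after quantile normalization.

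**Figure D3:**
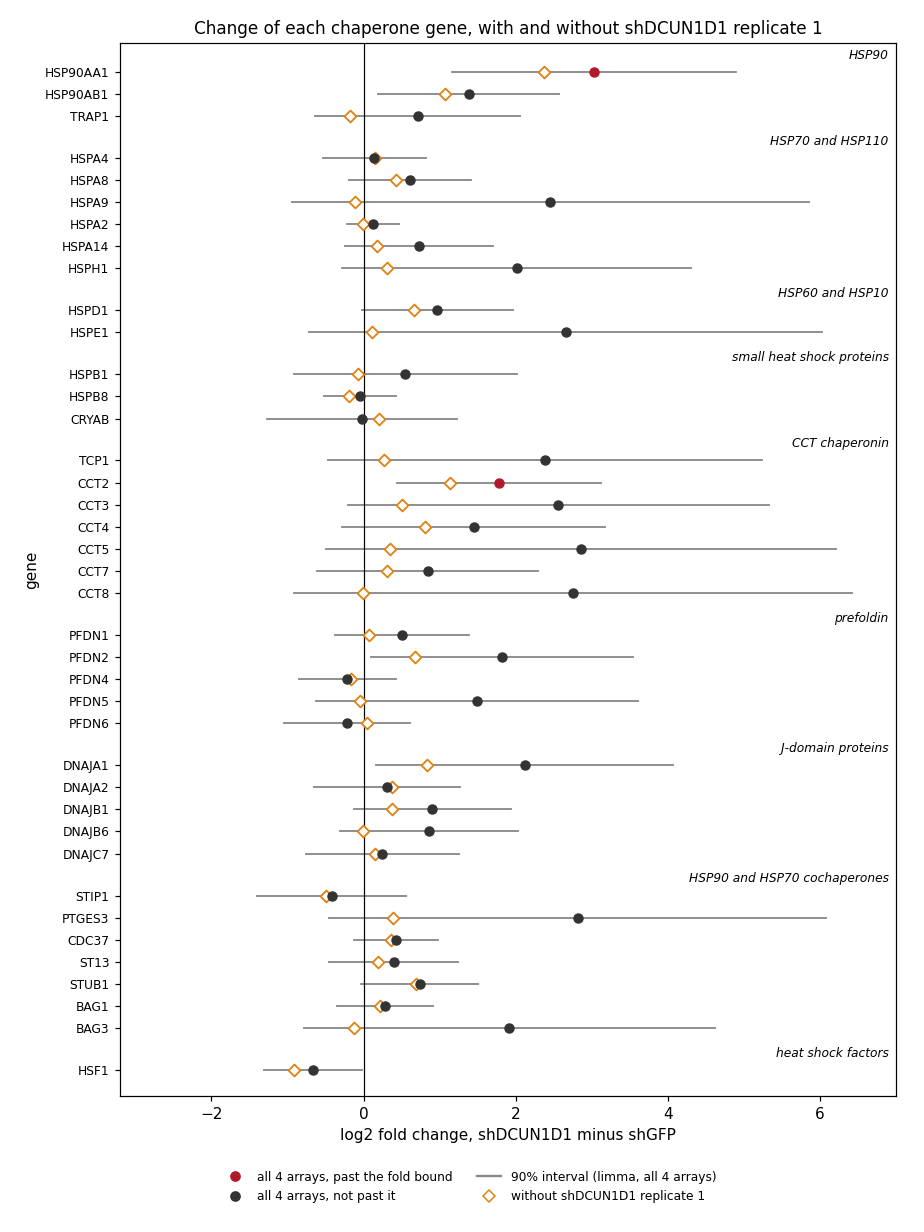
Log2 fold change of each chaperone gene, shDCUN1D1 minus shGFP, over all 4 arrays (filled circles, red where past the fold bound) with limma's 90% interval, and without shDCUN1D1 replicate 1 (open diamonds). HSP90AA1 and CCT2 are the red circles, and the diamonds of HSPA9, HSPE1, CCT8 and BAG3 fall to near 0.

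Among the HSP70 and HSP110 genes 0 of 6 passed the fold bound. HSPA8, which encodes the constitutive cytosolic HSC70, read 9.63 and 9.25 in shDCUN1D1 cells and 9.19 and 8.47 in shGFP cells. The log2 difference was 0.61 ± 0.39 (SE), 0.42 without shDCUN1D1 replicate 1 and 0.13 after quantile normalization. In each of its 4 probe sets both shDCUN1D1 arrays stood above both shGFP arrays, but by very different amounts. The fourth read 10.35 and 4.61 in shDCUN1D1 cells and 4.41 and 4.60 in shGFP cells, so that only shDCUN1D1 replicate 1 stood apart there.

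HSPA9, the mitochondrial HSP70 mortalin, read 6.60 and 1.47 in shDCUN1D1 cells and 1.47 and 1.70 in shGFP cells. HSPH1, an HSP110 that exchanges nucleotide on HSP70, read 5.29 and 1.88 in shDCUN1D1 cells and 1.71 and 1.45 in shGFP cells. Both were above the nonspecific control in shDCUN1D1 replicate 1 only, and their differences of 2.45 and 2.01 were -0.11 and 0.31 without that array. HSPA14, a ribosome-associated HSP70, read 3.02 and 1.93 in shDCUN1D1 cells and 2.14 and 1.36 in shGFP cells. HSPA2, which is best known from the testis, read 1.52 to 1.82 over all arrays, and none of its values exceeded the control. HSPA4, another HSP110, read 2.96 and 2.97 in shDCUN1D1 cells and 3.07 and 2.58 in shGFP cells, and the groups overlapped. A dimmer probe set of HSPA4 read 5.12 and 2.49 in shDCUN1D1 cells and 1.91 and 1.24 in shGFP cells, with a lower fold limit of 1.33. Of these values only the 5.12 exceeded the nonspecific control, so that limit was taken against values not above background.

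The mitochondrial pair HSP60 and HSP10 are encoded by neighbouring genes with a divergent promoter. HSPD1 was above the nonspecific control in all 4 arrays and HSPE1 in 1. HSPD1, which encodes HSP60, read 8.04 and 7.42 in shDCUN1D1 cells and 6.74 and 6.78 in shGFP cells. Both shDCUN1D1 arrays stood above both shGFP arrays, with a log2 difference of 0.97 ± 0.49 (SE) and a lower fold limit of 0.99, short of the fold bound. It was 0.66 without shDCUN1D1 replicate 1 and 0.36 after quantile normalization. A second HSPD1 probe set read 7.39 and 5.42 in shDCUN1D1 cells and 4.94 and 4.93 in shGFP cells, with the same order. HSPE1, which encodes HSP10, was measured by 1 probe set and read 7.03 and 1.95 in shDCUN1D1 cells and 1.78 and 1.88 in shGFP cells. The groups did not overlap, but the difference of 2.65 was 0.12 without shDCUN1D1 replicate 1.

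The CCT chaperonin had a median of 2.38 for 7 subunits over all 4 arrays, but it was 0.34 without shDCUN1D1 replicate 1. The 2.38 is the value of TCP1, which exceeded the nonspecific control in shDCUN1D1 replicate 1 only, so it rests on that array. The 0.34 is the value of CCT5, from signals all below the control, so neither median ranks the group. CCT2, the beta subunit of the ring, read 7.33 and 6.02 in shDCUN1D1 cells and 5.07 and 4.71 in shGFP cells. The groups did not overlap, and the log2 fold change was 1.79 ± 0.66 (SE), with a lower fold limit of 1.36 (limma, unadjusted p = 0.044, adjusted p = 0.59). It was 1.13 and no longer past the fold bound without shDCUN1D1 replicate 1, and 1.12 and not past it after quantile normalization. Averaging its probe sets (1.74), an unmoderated standard error, or leaving out shGFP replicate 1 (1.97) or shGFP replicate 2 (1.61) also ended the call. Its second probe set gave the same order, with 6.85 and 4.22 in shDCUN1D1 cells and 4.04 and 3.62 in shGFP cells.

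CCT4, the delta subunit, read 7.93 and 6.64 in shDCUN1D1 cells and 6.73 and 4.95 in shGFP cells, and CCT7, the eta subunit, read 6.07 and 5.00 in shDCUN1D1 cells and 5.32 and 4.06 in shGFP cells. In both, shDCUN1D1 replicate 2 lay below shGFP replicate 1, so the groups overlapped. The log2 differences were 1.44 for CCT4 and 0.84 for CCT7, 0.80 and 0.31 without shDCUN1D1 replicate 1, and 0.89 and 0.27 after quantile normalization. The remaining subunits, TCP1, CCT3, CCT5 and CCT8, read 6.67, 6.72, 7.18 and 7.39 in shDCUN1D1 replicate 1, but 2.44, 2.62, 2.16 and 1.87 in shDCUN1D1 replicate 2. They lay between 1.66 and 2.32 in the shGFP arrays, below the nonspecific control in both. CCT3 exceeded the control in both shDCUN1D1 arrays, and was at least 2.89-fold higher in shDCUN1D1 cells when the nonspecific control stands in for its shGFP values. That bound rests on shDCUN1D1 replicate 1, since the 2.62 of shDCUN1D1 replicate 2 lay below the stand-in level of 3.13, and no increase is bounded without it. CCT2, CCT4 and CCT7 were thus above the control in all 4 arrays, CCT3 in both shDCUN1D1 arrays, and TCP1, CCT5 and CCT8 in shDCUN1D1 replicate 1 only.

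**Figure D4:**
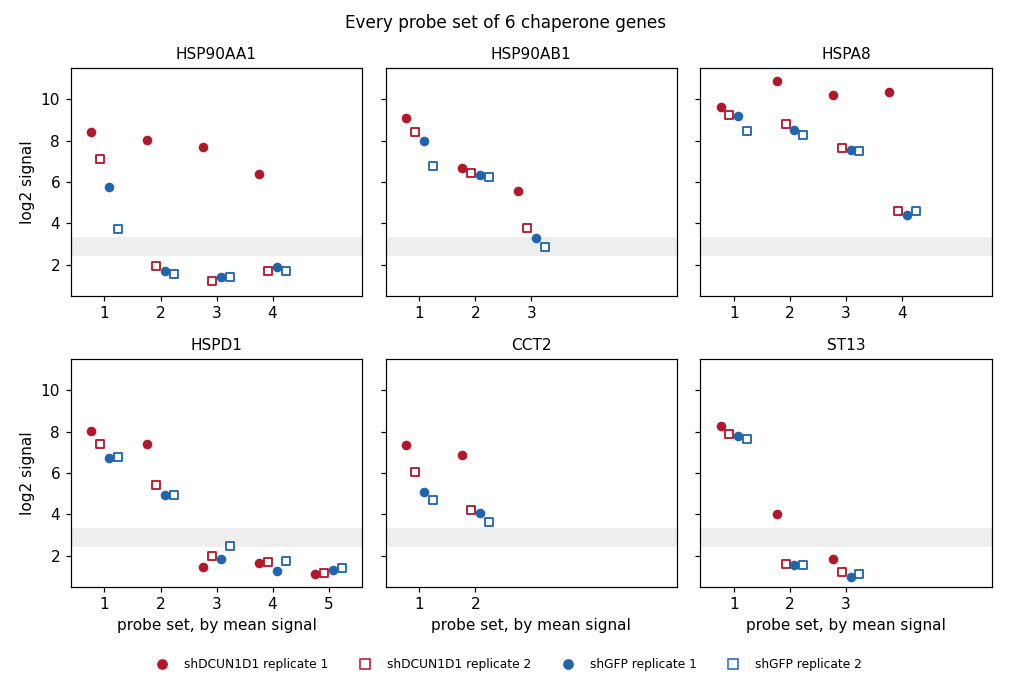
Log2 signal of every probe set of 6 chaperone genes (panels), ordered along the x axis by mean signal, with shDCUN1D1 in red, shGFP in blue, filled circles for replicate 1 and open squares for replicate 2, and the grey band spanning the nonspecific controls. In probe sets 2 to 4 of HSP90AA1 only shDCUN1D1 replicate 1 lies above the band, whereas all 3 of HSP90AB1, all 4 of HSPA8 and both of CCT2 keep the shDCUN1D1 arrays above the shGFP arrays.

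Prefoldin, the hexamer that delivers actin and tubulin to CCT, had 0 of 5 genes past the fold bound and a median of 0.50, or 0.04 without shDCUN1D1 replicate 1. PFDN2 read 5.87 and 3.57 in shDCUN1D1 cells and 3.13 and 2.68 in shGFP cells, without overlap. Its log2 difference was 1.82 ± 0.85 (SE), with a lower fold limit of 1.07, and 0.67 without shDCUN1D1 replicate 1. It passed the fold bound after quantile normalization, with a limit of 1.21. PFDN5, also known as a partner of MYC, read 5.38 and 2.30 in shDCUN1D1 cells and 2.55 and 2.15 in shGFP cells, with only shDCUN1D1 replicate 1 above the control. PFDN1 differed by 0.50 with overlap, or by 0.08 without shDCUN1D1 replicate 1. PFDN4 and PFDN6 were on the other side, at -0.22 each, with PFDN4 reading 2.74 and 2.84 in shDCUN1D1 cells and 3.17 and 2.84 in shGFP cells.

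The small heat shock proteins had no gene with both shDCUN1D1 arrays above both shGFP arrays, and a median of -0.02 over 3 genes. Whether they differ from the other groups was not tested. CRYAB, or alpha-B crystallin, read 4.29 and 4.75 in shDCUN1D1 cells and 5.15 and 3.94 in shGFP cells. The shGFP arrays enclosed the shDCUN1D1 arrays, and the log2 difference of -0.02 ± 0.62 (SE; 90% interval -1.27 to 1.23) became 0.21 without shDCUN1D1 replicate 1, 0.59 without shGFP replicate 1 and -0.40 after quantile normalization. HSPB1, which encodes HSP27, read 5.30 and 4.07 in shDCUN1D1 cells and 4.78 and 3.50 in shGFP cells, again with overlap. Its difference of 0.55 was -0.07 without shDCUN1D1 replicate 1 and 0.11 after quantile normalization. HSPB8, a partner of BAG3, read 1.96 to 2.25 over the arrays and was never above the control.

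The J-domain proteins, which bring substrates to HSP70 and start its ATP hydrolysis, had 0 of 5 genes past the fold bound and a median of 0.86, or 0.37 without shDCUN1D1 replicate 1. DNAJA1, an HSP40 of the cytosol, read 8.24 and 5.69 in shDCUN1D1 cells and 5.02 and 4.68 in shGFP cells. The groups did not overlap, and the log2 difference was 2.11 ± 0.96 (SE), with a lower fold limit of 1.12, and 0.84 without shDCUN1D1 replicate 1. DNAJB1, the heat-inducible HSP40, read 4.56 and 3.49 in shDCUN1D1 cells and 3.02 and 3.22 in shGFP cells, also without overlap. The log2 difference of DNAJB1 was 0.90, or 0.37 without shDCUN1D1 replicate 1. DNAJB6, a suppressor of aggregation, read 2.83 and 1.10 in shDCUN1D1 cells and averaged 1.10 ± 0.14 in shGFP cells (SD, n = 2). DNAJA2 and DNAJC7 differed by 0.31 and 0.25 with overlap, and after quantile normalization these values were -0.05 and -0.25.

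Among the cochaperones of HSP90 and HSP70, 0 of 7 genes passed the fold bound. The log2 difference was positive for 6 and negative for 1, STIP1, where 48.5% of all genes were positive. ST13, the HSP70-interacting protein HIP, read 8.29 and 7.89 in shDCUN1D1 cells and 7.76 and 7.63 in shGFP cells. The groups did not overlap, but the log2 difference of 0.39 ± 0.42 (SE) was small and became -0.14 after quantile normalization. STUB1, the ubiquitin ligase CHIP that acts on clients of HSP70 and HSP90, read 4.03 and 3.94 in shDCUN1D1 cells and 3.35 and 3.15 in shGFP cells. Its difference of 0.73 ± 0.38 (SE; lower fold limit 0.98) was 0.69 without shDCUN1D1 replicate 1, so it hardly rested on that array. STUB1 passed the fold bound with limma's variance prior fitted without a trend.

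STIP1, or HOP, which links HSP70 to HSP90, lay on the other side, with 4.51 and 4.36 in shDCUN1D1 cells and 5.09 and 4.63 in shGFP cells. Its log2 difference was -0.42 ± 0.48 (SE), -0.50 without shDCUN1D1 replicate 1 and -0.91 after quantile normalization. A second probe set of STIP1 ran the other way, by 0.82 with overlap. There only shDCUN1D1 replicate 1, at 5.43, stood above the shGFP values of 3.50 and 3.52, and shDCUN1D1 replicate 2 lay below both. Averaged over the probe sets of STIP1 the change was 0.20, so its direction over all 4 arrays is not settled. PTGES3, the HSP90 cochaperone p23, read 7.73 and 2.88 in shDCUN1D1 cells and 2.57 and 2.41 in shGFP cells, at least 4.50-fold higher in shDCUN1D1 cells against the nonspecific control. Here too shDCUN1D1 replicate 2 lay below the level of 3.13 that stands in for the shGFP values, so no increase is bounded without shDCUN1D1 replicate 1. CDC37, which brings kinases to HSP90, differed by 0.43 without overlap, and BAG1, a nucleotide exchange factor of HSP70, by 0.28 with overlap. Both lay below the control in both shGFP arrays, and their shDCUN1D1 means of 2.58 and 2.60 were below the level of 3.13, so no increase is bounded for either. BAG3, a stress-inducible exchange factor linked to autophagy, read 5.44 and 1.37 in shDCUN1D1 cells and averaged 1.49 ± 0.02 in shGFP cells (SD, n = 2).

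HSF1, the transcription factor behind the heat shock response, read 2.59 and 2.09 in shDCUN1D1 cells and 2.93 and 3.09 in shGFP cells. The groups did not overlap, with a log2 difference of -0.67 ± 0.32 (SE) and a lower fold limit of 1.01, and -0.92 without shDCUN1D1 replicate 1. All but the value of shDCUN1D1 replicate 1 lay below the nonspecific control of their array, and the second probe set of HSF1 ran the other way, by 0.29. The control itself was lower in the shDCUN1D1 arrays, and its part in this difference was not tested.

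Set beside the promoters, 5 of the 6 genes with a heat shock element were above the nonspecific control in all 4 arrays, and 5 of 6 had both shDCUN1D1 arrays above both shGFP arrays, DNAJB6 being the exception in both counts. Of the 29 genes with a window but no match, 27 were measured, and of these 8 were above the control in all 4 arrays. Both shDCUN1D1 arrays stood above both shGFP arrays for 9 of the 27. Of all genes, 7.64% were above the control in all 4 arrays, and 18.4% had both shDCUN1D1 arrays above both shGFP arrays. Genes with a match were thus mostly above background in every array, where most of the others were not. The list of chaperones holds known HSF1 targets, and these counts are a description. A link between the element and the difference was not tested.

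Over the 85 probe sets, 70 had a positive log2 fold change and 15 a negative one, where 48.3% of all probe sets were positive. Past the fold bound were 3 higher probe sets (1.18% of all probe sets), of HSP90AA1, CCT2 and HSPA4, and 0 lower ones (2.38%). The HSPA4 probe set exceeded the nonspecific control in 1 array only. In 25 of the 85, shDCUN1D1 replicate 1 read more than 2 log2 units above each other array, against 3.46% of all probe sets. Of the 26 genes with several probe sets, 11 had probe sets of both signs, HSPD1, TRAP1, CCT5 and STIP1 among them. The negative probe sets of HSPD1, TRAP1 and CCT5 exceeded the nonspecific control in no array, so their order is not settled. Both probe sets of STIP1 exceeded it in all 4 arrays.

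A further 54 cytosolic and mitochondrial chaperone genes lay outside the list. Their median was 0.23, and -0.06 without shDCUN1D1 replicate 1, with 33 genes positive, where 48.5% of all genes were. Past the fold bound were 2 upwards (1.57% of all genes) and 1 downwards (3.64% of all genes). GRPEL1, the nucleotide exchange factor of mitochondrial HSP70, read 5.18 and 2.86 in shDCUN1D1 cells and 2.36 and 1.67 in shGFP cells. Its log2 difference of 2.01 was 0.84 without shDCUN1D1 replicate 1. SUGT1, an HSP90 cochaperone, read 4.88 and 2.38 in shDCUN1D1 cells and 1.67 and 1.60 in shGFP cells. Its difference of 1.99 was 0.74 without that array, and only the 4.88 exceeded the nonspecific control. HSF4, a heat shock factor of the lens, read 3.04 and 2.32 in shDCUN1D1 cells and 3.80 and 4.83 in shGFP cells. HSPA1A, a heat-inducible HSP70 with the near-identical copy HSPA1B, read 8.07 and 1.11 in shDCUN1D1 cells and 1.19 and 1.45 in shGFP cells, and is named here after its values were seen. The high value stood in the same single array as those of HSPA9, HSPH1 and BAG3.

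The chaperones of the endoplasmic reticulum and other abundant housekeeping lists were read in the same way. Of 18 endoplasmic reticulum chaperones, 2 were past the fold bound upwards and 0 downwards, against 1.57% and 3.64% of all genes. Their median was 0.59, or 0.00 without shDCUN1D1 replicate 1. HSPA5, or BiP, the HSP70 of that compartment, read 7.49 and 4.07 in shDCUN1D1 cells and 2.71 and 2.96 in shGFP cells. Its log2 difference of 2.94 was 1.23 without shDCUN1D1 replicate 1. CRELD2, a target of the unfolded protein response, read 3.51 and 3.58 in shDCUN1D1 cells and 2.49 and 2.41 in shGFP cells, and its difference of 1.09 was 1.13 without that array. Of 28 proteasome genes 1 was past the fold bound upwards (1.57% of all genes), PSMD12, with 5.27 and 2.57 in shDCUN1D1 cells and 1.74 and 1.39 in shGFP cells. The median of the proteasome genes was 0.38 (0.04 without shDCUN1D1 replicate 1). Of 47 cytosolic ribosomal protein genes 0 passed the fold bound in either direction, but the median was 1.47 (0.11 without shDCUN1D1 replicate 1). In that array 29 of the 47 read more than 2 log2 units above each other array, against 4.32% of all genes. A positive median that shrank without shDCUN1D1 replicate 1 was thus seen in each of these 4 lists as well as in the chaperones.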

How the data were processed

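The authors deposited a single table of log2 signals by probe set and array. Affymetrix Expression Console (no version) is named in the submitters' notes, whereas dChip with a smoothing spline is named in the methods, and which of them made the deposited values is not settled here. The methods also name another array type than the one these probe sets belong to.

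Gene names came from the platform annotation, and probe sets naming 1 gene were kept (864 named several, 12835 none, and 102 were controls), and 40858 of 40914 were matched by gene ID to RefSeq (GRCh38.p14). For each gene the probe set of highest mean signal over the 4 arrays was used, and groups were compared with limma 3.58.1 (R 4.3.3; lmFit and eBayes with a variance trend), which was tested on simulated data. The fold bound is the lower limit of the 90% interval of the fold change, from limma's standard error, set against 1.2. It follows the methods' rule, but not their software. Arrays have no read depth, so signals were set against the array's own nonspecific control.

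The members and lists were chosen with earlier results of these data known. Values in every array are given for members past the fold bound and for the member of each group with the highest mean, and other members by values, ranges or counts. For other lists up to 4 genes past the fold bound are named. Alternatives were quantile normalization, median centring, filters on low signal, averaging the probe sets of a gene, limma without a trend, with a robust prior or unmoderated, a bound of 1.5, the methods' t-test, a replicate block and leaving out each array.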

Additional observations from a re-analysis of the deposited data

Results flagged for a closer look

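The control probe sets of GAPDH and ACTB, which the comparisons above did not use, differed between the groups, with both shDCUN1D1 arrays above both shGFP arrays in each. The mean of the shDCUN1D1 arrays minus the mean of the shGFP arrays was 3.11 log2 units for the 3′ probe set of GAPDH, 1.32 for its middle probe set and 1.90 for its 5′ probe set. For ACTB the same differences were 2.32 for the 3′ probe set, 0.56 for the middle one and 0.70 for the 5′ one. Most of the 3′ differences came from 1 array: without shDCUN1D1 replicate 1 they were 0.24 for GAPDH and 0.35 for ACTB, while the middle and 5′ probe sets gave 0.79 and 0.63 for GAPDH and 0.59 and 0.49 for ACTB. Over 19774 genes that array correlated with the others at r = 0.67 to 0.76, against 0.82 to 0.92 among the other 3 arrays, and no formal outlier check was run in groups of 2.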

How the results depend on the processing

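HSP90AA1 and CCT2 were both past the fold bound after median centring and with either filter on low signal. Among the chaperone genes the count of 2 higher became 0 when the probe sets of a gene were averaged, 5 without a variance trend, 1 with an unmoderated standard error (STUB1) and 1 at a bound of 1.5, and ranged from 0 to 20 when 1 array was left out, the 20 being without shDCUN1D1 replicate 2. With the replicate block it was 3, adding PFDN2, with 0 lower. Over all genes the deviations of the replicates correlated at -0.04. That value cannot settle whether replicate numbers pair the samples, since shDCUN1D1 replicate 1 stood apart over many genes. With the block the SE fell for HSP90AA1, from 0.92 to 0.67, and rose for HSPD1, from 0.49 to 0.61. For probe sets the count of 3 became 5, 1 and 1 without a trend, unmoderated and at a bound of 1.5, and ranged from 0 to 49. Over all genes, 311 higher and 720 lower became 96 and 333 above the nonspecific control, 172 and 412 with averaged probe sets and 85 and 256 at a bound of 1.5, while 177 were higher unmoderated. Leaving out 1 array gave 39 to 2253 higher and 343 to 923 lower. Leaving out 1 array, the median ranged from 0.21 to 1.38 over all members, 0.83 to 1.99 for HSP90, 0.34 to 4.50 for CCT and -0.092 to 0.59 for small heat shock proteins, and the DCUN1D1 value from -1.02 to -0.47. CRYAB ranged from -0.63 to 0.59 and ST13 became -0.14 after quantile normalization. The causes were not tested. The methods' t-test gave 1 gene higher and 0 lower after adjustment, and 1 higher chaperone gene before it.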
